A study of Sus scrofa with 22 samples.

Results

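miR-140-3p and miR-140-5p are the mature microRNAs cut from opposite arms of 1 hairpin precursor, and both were counted in small RNA libraries of pig subcutaneous fat. They were found by the miRNA name that the authors attached to each sequence, and the reads of every sequence with the same name were added up in each library. The 2 arms are 2 of 250 mature miRNA names in the count tables. miR-140-3p was made up of 110 different sequences with 151491 reads and miR-140-5p of 9 sequences with 10429 reads, out of 8489 sequences in all. The pair was chosen because miR-140-3p differed between breeds in these same libraries, so breed differences are given here as a description with no test. The thick and thin classes of fat took no part in that choice and were tested.

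Subcutaneous fat of female pigs aged 6 months was sequenced in 22 libraries, from fat that the labels class as thick or thin. Pietrain had 4 thick-fat and 3 thin-fat libraries, Large White 4 of each class, and Hampshire 5 of thick and 2 of thin fat. No treatment or altered genotype is given in the labels, and no untreated or reference tissue was sequenced beside the fat. Each breed was deposited in a table of its own, and the labels do not say whether the breeds were prepared or sequenced together, so batches could not be examined. Library totals ran from 430712 to 3136842 reads with a miRNA name, and the shallowest one was in Hampshire; the lowest was 758597 for Pietrain and 557807 for Large White. No count from 1 to 5 occurs in the tables, so a sequence listed at 0 may have had up to 5 reads. In Large White, the fold changes of the authors' deposited table had the sign of thin minus thick for nearly all abundant sequences only when thick replicate 1 and thin replicate 1 changed places. The share with the opposite sign was then 4.92%, against 47.5% as labelled, and it was 1.75% in Pietrain and 14.7% in Hampshire. The libraries are called by their labels here. The Large White fat differences of both arms, their ratio and the upstream start share are also given with these replicates exchanged. Other Large White fat values computed here are as labelled, which does not cover the authors' deposited fold changes.

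Drosha and Dicer cut a miRNA from its hairpin, and a guide strand is loaded into an Argonaute protein while the other arm is often lost. Bases 2 to 8 of the loaded strand, the seed, pair with target messages, so a start that moves by 1 base gives a different seed, whereas the 3′ end is trimmed or extended with little effect on the seed. MIR140 lies inside WWP2, a ubiquitin ligase gene, in the RefSeq annotation of pig assembly Sscrofa11.1, which is a later assembly than the Sscrofa10.2 of the submitters' processing notes, so no coordinates are given. The miR-140 hairpin is best known from cartilage, where SOX9 drives its host gene, and miR-140-5p has also been studied in the formation of adipocytes.

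The sequences below are printed as they stand in the deposited tables, with the seed in capitals, because they show that miR-140-3p came with 2 starts and therefore 2 seeds. The first set begins with the U of the upstream start.
miR-140-3p, upstream start, ending gga: uACCACAGgguagaaccacgga
miR-140-3p, upstream start, ending ggac: uACCACAGgguagaaccacggac
miR-140-3p, upstream start, short end: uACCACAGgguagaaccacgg
miR-140-3p, upstream start, a after gga: uACCACAGgguagaaccacggaa
The next set begins 1 base later, at the A of the downstream start.
miR-140-3p, downstream start, ending ggac: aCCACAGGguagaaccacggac
miR-140-3p, downstream start, ending ggaca: aCCACAGGguagaaccacggaca
miR-140-3p, downstream start, ending ggacu: aCCACAGGguagaaccacggacu
miR-140-3p, downstream start, ending gga: aCCACAGGguagaaccacgga
miR-140-3p, downstream start, u after gga: aCCACAGGguagaaccacggau
miR-140-3p, downstream start, short end: aCCACAGGguagaaccacgg
The third set is the other arm, in which every sequence had the same start and the same seed.
miR-140-5p, most reads: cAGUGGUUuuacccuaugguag
miR-140-5p, second: cAGUGGUUuuacccuaugguaa

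Over all libraries, 47 sequences with 70267 reads (46.4% of miR-140-3p) had the upstream start and its seed ACCACAG. The other 63 sequences, with 81224 reads (53.6%), had the downstream start and the seed CCACAGG. No single sequence dominated miR-140-3p. Its most abundant one, the 22-nt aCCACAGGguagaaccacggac, held 14.1% of the reads of the arm, the 6 with the most reads held 59.3% and the top 12 held 82.4%. miR-140-5p was less divided, since the 22-nt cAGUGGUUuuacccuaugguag alone held 56.3% of its reads. Of the miR-140-3p sequences, 101 had reads in Pietrain, 77 in Large White, but 51 in Hampshire, whose libraries also gave fewer miR-140 reads (66187, 64816 and 20488). The 21 sequences with reads in every library held 92.7% of all miR-140-3p reads.

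miR-140-3p was the more abundant arm in every library. Its level averaged 3971 CPM (read counts scaled to a common library size) over all libraries, rank 33 of the 250 names, and that of miR-140-5p averaged 288 CPM, rank 83. Both arms are of nearly the same length, and the CPM are per read, so ligation bias between the arms is included in these levels and was not tested.

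Pietrain had the highest levels of miR-140-3p and Hampshire the lowest. In Pietrain thick fat the libraries had 4304, 3921, 4513 and 5299 CPM, and in Pietrain thin fat 8004, 5185 and 6837 CPM. In Large White they had 5123, 3683, 3661 and 3909 CPM in thick fat and 3811, 3777, 3860 and 3549 CPM in thin fat. Hampshire thick fat had 2670, 2294, 1956, 2878 and 3770 CPM and thin fat 2078 and 2284 CPM. All 7 Hampshire libraries were below all 7 Pietrain libraries, and 1 Hampshire library, thick replicate 5, reached into the Large White range. Of 176 miRNAs kept by the filter on low counts, 5.68% had Hampshire below Pietrain with no overlap, a share that is given as background only, since the pair was chosen on this contrast. The breed means were 5438 ± 1476 CPM in Pietrain (SD, n = 7), 3922 ± 499 CPM in Large White (SD, n = 8) and 2561 ± 622 CPM in Hampshire (SD, n = 7). In order of their means the groups ran from Pietrain thin (6675 CPM) through Pietrain thick (4509 CPM), Large White thick (4094 CPM), Large White thin (3749 CPM) and Hampshire thick (2714 CPM) to Hampshire thin (2181 CPM). The ranges of each pair of neighbours in this order overlapped.

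miR-140-5p did not follow that order. It had 293, 268, 248 and 264 CPM in Pietrain thick fat and 234, 256 and 298 CPM in Pietrain thin fat. Large White libraries had 339, 296, 239 and 250 CPM in thick fat and 275, 302, 251 and 217 CPM in thin fat. Hampshire had 285, 257, 200, 326 and 470 CPM in thick fat and 335 and 432 CPM in thin fat. The ranges of all 3 breeds overlapped, with means of 266 ± 23.1 CPM in Pietrain (SD, n = 7), 271 ± 39.5 CPM in Large White (SD, n = 8) and 329 ± 95.2 CPM in Hampshire (SD, n = 7). The widest spread was in Hampshire, where thick replicates 3 and 5 were the lowest and the highest of all 22 libraries.

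**Figure D1:**
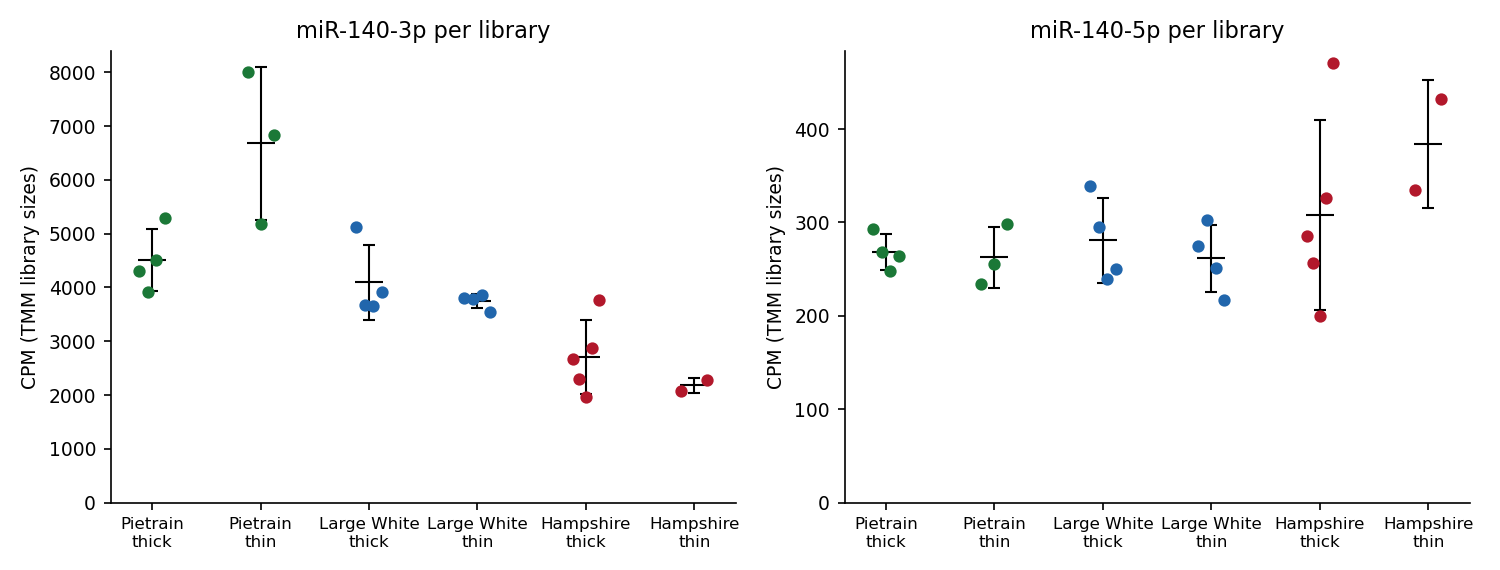
Level of miR-140-3p (left) and miR-140-5p (right) in CPM on TMM library sizes, 1 point per library by breed and fat class, with the mean and SD of each group as a bar with whiskers. For miR-140-3p the Hampshire libraries sit between 1956 and 3770 CPM and the Pietrain libraries between 3921 and 8004 CPM, while for miR-140-5p the breeds overlap.

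With thick and thin fat weighted equally, the fitted log2 difference of miR-140-3p was -1.17 ± 0.15 (SE) for Hampshire minus Pietrain, -0.68 ± 0.14 for Hampshire minus Large White and 0.49 ± 0.13 for Pietrain minus Large White. For miR-140-5p the same differences were 0.37 ± 0.17, 0.35 ± 0.16 and -0.03 ± 0.16. These 3 contrasts share libraries in pairs. The 2 arms of the hairpin therefore differed in opposite directions between Hampshire and either other breed. Scaling by library totals alone moved the median of all 176 miRNAs to -0.31 for Hampshire minus Large White and -0.23 for Hampshire minus Pietrain, and upper quartile scaling moved it to -0.22 and -0.18. With library totals, Hampshire minus Large White came to 0.062 for miR-140-5p and -0.97 for miR-140-3p. In bulk tissue, fewer cells of a type and less RNA per cell cannot be told apart.

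The ratio of the arms needs no scaling between libraries, since both counts come from the same one. It came to 14.7, 14.6, 18.2 and 20.1 reads of miR-140-3p per read of miR-140-5p in Pietrain thick fat and to 34.2, 20.3 and 23.0 in thin fat. Large White libraries had 15.1, 12.5, 15.3 and 15.7 in thick fat and 13.9, 12.5, 15.4 and 16.3 in thin fat. Hampshire libraries had 9.35, 8.94, 9.78, 8.82 and 8.02 in thick fat and 6.20 and 5.29 in thin fat. The highest ratio in Hampshire was thus below the lowest of either other breed. The breed means were 20.7 ± 6.66 in Pietrain (SD, n = 7), 14.6 ± 1.46 in Large White (SD, n = 8) and 8.06 ± 1.69 in Hampshire (SD, n = 7). Counting only sequences with reads in every library gave 21.01, 14.95 and 8.05, which moved each mean by less than its SD.

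**Figure D2:**
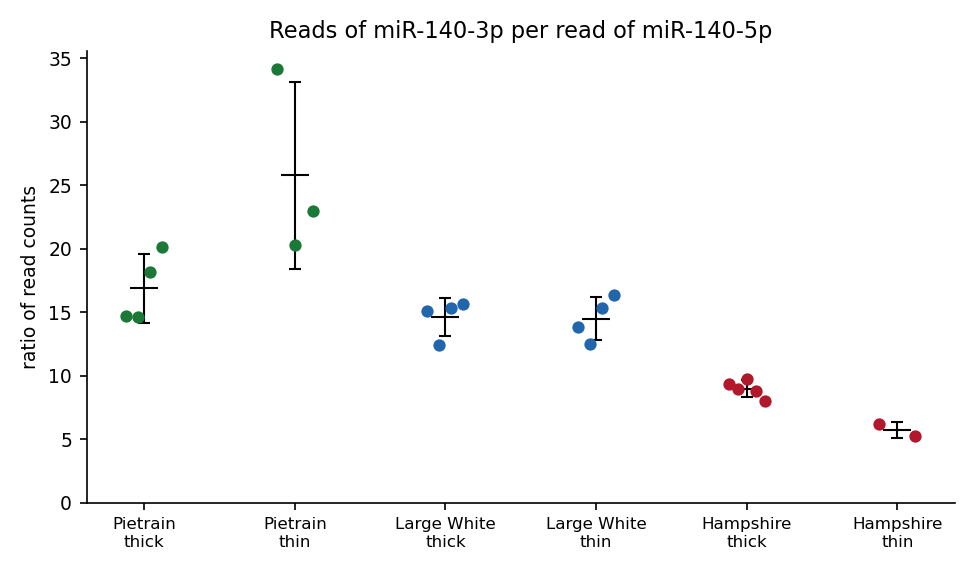
Reads of miR-140-3p per read of miR-140-5p, 1 point per library by breed and fat class, with group means and SD. All Hampshire libraries lie between 5.29 and 9.78, below the lowest library of the other breeds at 12.5.

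Both arms had reads in every library for 12 hairpins, and 2 of them (16.7%) had a Hampshire arm ratio outside the range of both other breeds. These were miR-140, with Hampshire below, and miR-151, with Hampshire above. The log2 arm ratio of miR-140 averaged 4.32 in Pietrain and 3.86 in Large White but 2.98 in Hampshire, a shift of -0.88 from Large White and -1.34 from Pietrain. The median size of the shift over the 12 hairpins was 0.35 from Large White and 0.43 from Pietrain. miR-151, the hairpin with the widest shift from Large White, moved by 1.06 from that breed and 0.80 from Pietrain.

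Each start form followed the order of the arm as a whole, the downstream one with the wider spacing. The downstream form, with seed CCACAGG, averaged 3059 ± 868 CPM in Pietrain (SD, n = 7), 2089 ± 367 CPM in Large White (SD, n = 8) and 1288 ± 355 CPM in Hampshire (SD, n = 7). The upstream form, with seed ACCACAG, averaged 2379 ± 614, 1833 ± 144 and 1274 ± 269 CPM in the same order of breeds. The upstream share of miR-140-3p reads was therefore lowest in Pietrain and highest in Hampshire. It ran from 42.3% to 47.0% with a median of 43.6% in Pietrain, from 41.9% to 49.2% with a median of 47.1% in Large White, and from 46.8% to 52.0% with a median of 50.2% in Hampshire. Pietrain and Hampshire overlapped by 1 library each, Pietrain thick replicate 2 and Hampshire thick replicate 5. In Large White the share spanned the whole Pietrain range. Hampshire thick replicate 5 lay within the Large White range, and the other Hampshire libraries, at 49.8% or more, were above every Large White library.

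**Figure D3:**
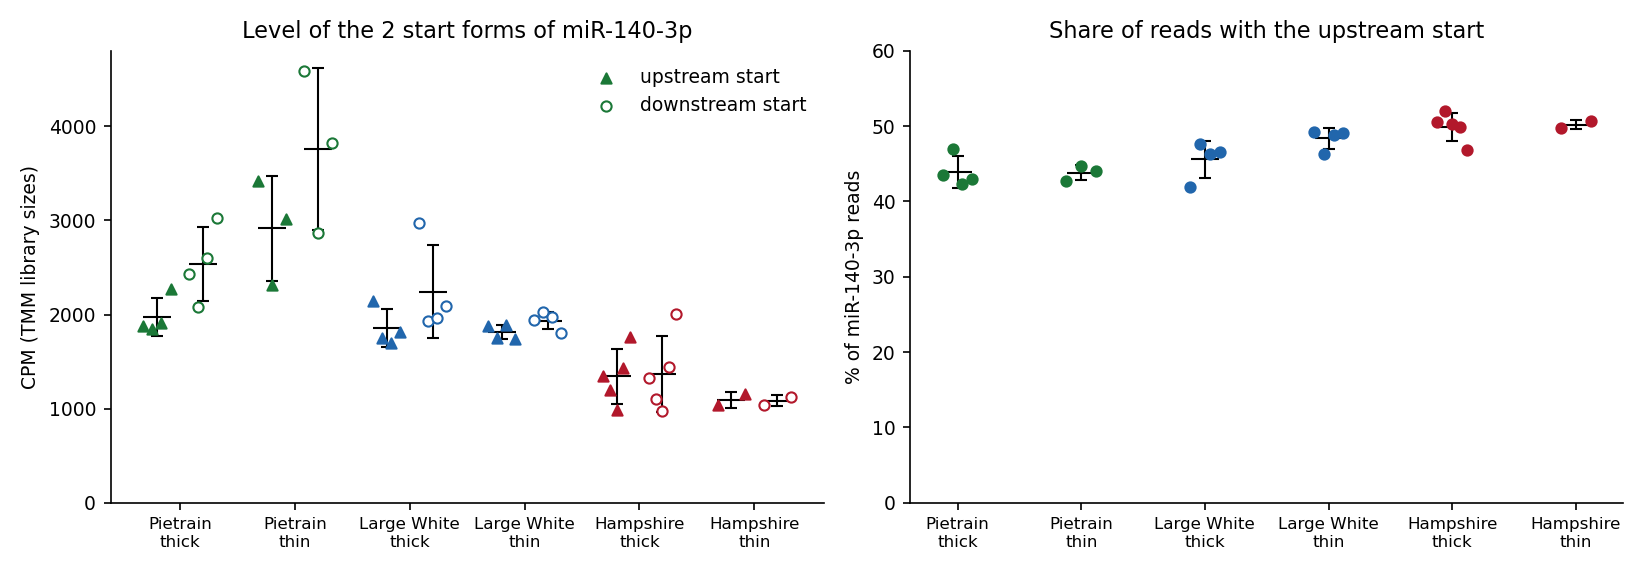
Left, CPM of the 2 start forms of miR-140-3p in each library (filled triangles, upstream start; open circles, downstream start); right, the upstream start as a percentage of miR-140-3p reads, each with group means and SD. The forms are about level in Hampshire at means of 1274 and 1288 CPM, and the downstream form is the higher one in Pietrain at 3059 against 2379 CPM.

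The 3′ ends of miR-140-3p set Hampshire apart more clearly than the starts did. Counted from the first base of the upstream start, most reads of either start ended between positions 21 and 24. Reads with the downstream start ended later, at a mean position of 23.2 over all libraries against 22.6 for the upstream start. Pooled over libraries, 55.1% of reads ended in ggac or with more bases after that c, 17.2% ended in gga, and 17.4% carried a base other than c after gga. A further 8.08% had short ends, which stopped at position 21 or before in ccac, ccacg or ccacgg. The remaining reads had other ends (1.90%) or 1 changed base up to position 19 (0.325%). Some of the other ends also lay at position 21 or before, with a different last base, and were not counted as short. The share with short ends ran from 14.0% to 17.9% with a median of 15.5% in the 7 Hampshire libraries. It ran from 5.09% to 7.66% with a median of 6.93% in Pietrain and from 6.10% to 8.24% with a median of 7.57% in Large White. Hampshire was thus apart from both breeds, whereas Pietrain and Large White overlapped.

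The same pattern held within each start. Of reads with the upstream start, 23.9% ± 1.82 in Hampshire (SD, n = 7), 12.0% ± 1.62 in Large White (SD, n = 8) and 11.6% ± 1.63 in Pietrain (SD, n = 7) were short-ended. Of reads with the downstream start the shares were 7.24% ± 0.91 in Hampshire, 3.27% ± 0.302 in Large White and 2.90% ± 0.50 in Pietrain. The gain in short ends in Hampshire was matched by fewer reads ending at position 23, at which 20.7% ± 2.54 of upstream-start reads ended in Hampshire, 34.7% ± 2.52 in Large White and 35.9% ± 3.14 in Pietrain. Reads ending at position 24 had similar shares, 24.99% ± 3.23, 27.1% ± 2.53 and 26.3% ± 1.42.

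**Figure D4:**
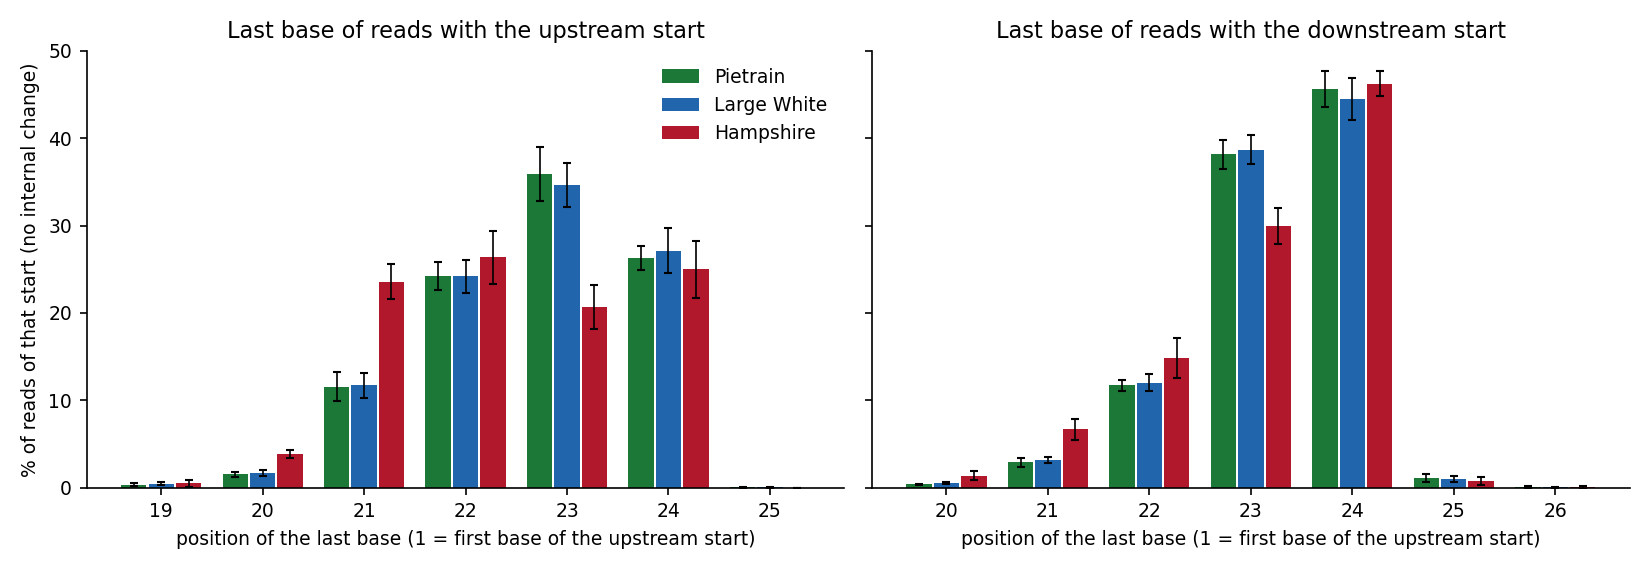
Position of the last base of miR-140-3p reads with the upstream start (left) and the downstream start (right), as the mean percentage over the libraries of each breed with the SD as whiskers; position 1 is the first base of the upstream start. Among upstream-start reads, position 21 holds 23.6% in Hampshire and 11.6% in Pietrain, and position 23 holds 20.7% and 35.9%.

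**Figure D5:**
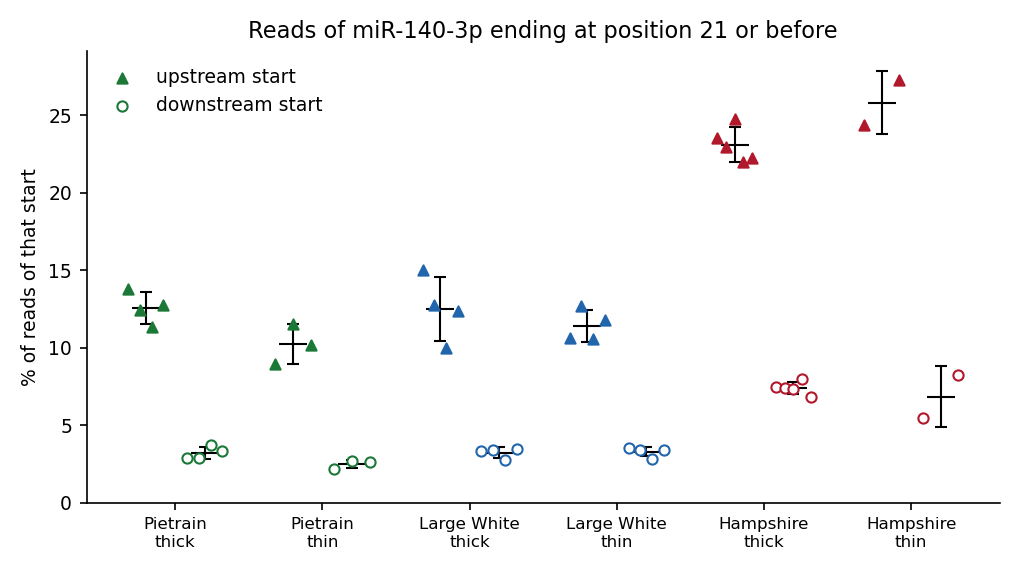
Share of miR-140-3p reads with short ends (ccac, ccacg or ccacgg, at position 21 or before) in each library, with group means and SD. Filled triangles are the upstream start and open circles the downstream start. Reads that stop there with a different last base are not counted. Hampshire libraries lie between 22.0% and 27.3% for the upstream start, and those of the other breeds reach 15.0% at most.

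Single sequences showed what this meant for levels. The 21-nt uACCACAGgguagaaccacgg averaged 228 ± 28.2 CPM in Pietrain (SD, n = 7), 185 ± 36.2 CPM in Large White (SD, n = 8) and 254 ± 43.1 CPM in Hampshire (SD, n = 7), and its ranges overlapped in all 3 breeds. The 23-nt uACCACAGgguagaaccacggac, with the same start and 2 more bases, averaged 547 ± 187, 404 ± 34.2 and 162 ± 33.2 CPM, and its highest Hampshire library (209 CPM) was below the lowest of either other breed (349.5 CPM). The log2 ratio of the Hampshire to the Pietrain mean was 0.16 for the shorter form and -1.76 for the longer one. The downstream-start pair went the same way, at 0.00 for aCCACAGGguagaaccacgg and -1.61 for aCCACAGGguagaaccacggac. Within both pairs, the lower Hampshire mean was thus in the longer sequence and not in the short-ended one.

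The share of reads with a base other than c after gga, such as the last a of uACCACAGgguagaaccacggaa or the u of aCCACAGGguagaaccacggau, was lower in Hampshire as well. It was 11.8% ± 1.19 in Hampshire (SD, n = 7), 17.4% ± 1.54 in Large White (SD, n = 8) and 18.3% ± 2.09 in Pietrain (SD, n = 7), and the highest Hampshire library (13.5%) was below the lowest of the others (14.9%). Whether these bases were templated by the hairpin was not examined. The mean length of miR-140-3p reads came to 22.3 nt in Hampshire and 22.5 nt in either other breed. Shorter reads in Hampshire were not particular to this arm, since 85 of 92 miRNAs measured in every library had a lower mean length in Hampshire than in Large White, with a median shift of -0.09 nt against -0.22 nt for miR-140-3p. Of the 92, 15 (16.3%) had Hampshire below both other breeds with no overlap, and miR-140-3p was 1 of them at rank 12 of the most shortened against Large White. miR-140-5p moved by -0.05 nt and overlapped. How far library size selection or RNA quality entered these lengths was not tested.

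Sequences with 1 base changed were looked for up to position 19 and were rare. Any change past position 19 was counted among the ends. They numbered 33, with 492 reads and 11 distinct changes, in positions counted from 1 at the upstream start. Changes from A to G made up 334 of these reads (67.9%), with A14G the most frequent at 163 reads in 10 libraries, then A15G with 96, A18G with 45 and A12G with 30. U1G, at the first base, had 82 reads, all of them in Pietrain, where 3 thick libraries held 75 and 1 thin library held 7. The seed of the upstream form was changed in 0 sequences, and that of the downstream form in 1, G8A, with 6 reads. A sequence needed at least 6 reads in a library to be listed, and Hampshire, with the fewest miR-140-3p reads, had no changed sequence listed in 6 of 7 libraries.

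In the comparison of fat classes, no miRNA passed the threshold of an adjusted p of 0.05 in edgeR's quasi-likelihood test in any breed, over all breeds, or for a fat difference that varied between breeds (0% of 161 to 176 tested). At an unadjusted p below 0.05 there were 4 in Pietrain, 2 in Large White, 5 in Hampshire, 1 over all breeds and 8 for the variation between breeds. DESeq2 called 1 (0.621%), 0, 3 (1.79%), 1 (0.568%) and 2 (1.14%) miRNAs in the same order, none of them an arm of miR-140, and limma-voom called 0 in each. In simulated data with the depth and spread of these libraries, 40 miRNAs of 161 to 172 were changed in each run. Of these, 44% of 4-fold and 7.5% of 2-fold changes were recovered in Pietrain, 73.5% and 22% in Large White, and 11% and 1.5% in Hampshire. Recovery of a single miRNA changed alone was not simulated.

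In Pietrain, miR-140-3p had a lower mean in thick than in thin fat. The log2 difference was -0.58 ± 0.19 (SE; 95% interval -1.03 to -0.12), with an edgeR adjusted p of 0.993 over 161 miRNAs (unadjusted 0.0206). The ranges overlapped at 1 library of each class, since thick replicate 4 (5299 CPM) was above thin replicate 2 (5185 CPM). In Large White the difference was 0.17 ± 0.15 (edgeR adjusted p = 0.958), and it was -0.11 with the replicates 1 exchanged and 0.024 without thick replicate 1. In Hampshire it was 0.27 ± 0.26 (edgeR adjusted p = 0.952), from 0.15 without thick replicate 5 to 0.38 without thin replicate 2, and over all breeds -0.06 ± 0.14 (edgeR adjusted p = 0.998). Whether the difference varied between breeds had an edgeR adjusted p of 0.494 (unadjusted 0.0140). miR-140-5p differed by 0.02 ± 0.17 in Pietrain, 0.14 ± 0.19 in Large White (-0.06 exchanged), -0.37 ± 0.35 in Hampshire and -0.04 ± 0.13 over all breeds, and none passed the threshold. In Hampshire its value was -0.13 without thin replicate 2 and -0.58 without thin replicate 1, and in Large White 0.022 without thick replicate 1. The labels give no animal numbers, so what the p-values measure is variation among libraries, part of which may be technical.

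A set of 6 measures that need no scaling were compared by exact two-sided permutation tests over libraries, within each breed and over all breeds, 24 tests in all. None passed after Benjamini-Hochberg adjustment, the lowest adjusted p being 0.457. In Pietrain the log2 arm ratio was 4.06 ± 0.23 in thick fat (SD, n = 4) and 4.65 ± 0.39 in thin fat (SD, n = 3), a difference of -0.59 (exact permutation p = 0.0571, adjusted 0.457). All thick libraries were below all thin ones, and miR-140 was the only 1 of the 12 hairpins with both arms (8.33%) to be separated there, counting either direction. The nearest libraries were thick replicate 4, with a ratio of 20.1, and thin replicate 2, with 20.3. Counting only sequences with reads in every library, these were 20.9 and 20.1, so the classes overlapped. The log2 difference was -0.37 without thin replicate 1, which had the highest ratio of all libraries, and ranged to -0.74 without thin replicate 2. In Hampshire it went the other way, with 3.16 ± 0.11 in thick fat (SD, n = 5) and 2.52 ± 0.16 in thin fat (SD, n = 2), a difference of 0.65 (exact permutation p = 0.0476, the smallest this design allows, adjusted 0.457). All Hampshire thick libraries were above both thin ones, and miR-140 was 1 of 2 hairpins (16.7% of the 12) separated in that breed. In Large White the ratio differed by 0.01, and by -0.05 with the replicates 1 exchanged (adjusted exact permutation p = 1 for both).

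Within Pietrain, the share of reads with a base other than c after gga was 15.8%, 18.02%, 15.5% and 18.2% in thick fat and 21.1%, 19.9% and 19.6% in thin fat. The difference was -3.32 percentage points (exact permutation p = 0.0286, the smallest this design allows, adjusted 0.457), and the classes did not overlap. Short ends were the other way round in Pietrain, 6.93% to 7.66% in thick and 5.09% to 6.63% in thin fat, a measure left out of the tests. The upstream start share differed by 0.10 percentage points in Pietrain, by -2.79 in Large White (0.84 exchanged), and by -0.31 in Hampshire, with adjusted exact permutation p-values of 1, 0.514 and 1. The share of the most abundant sequence, the mean length and the share with 1 changed base had adjusted exact permutation p-values of 0.686 or more within breeds.

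The authors' deposited table of fat comparisons, fitted per sequence and read as thin minus thick, called none of the sequences of either arm. For Large White that reading held only with the replicates 1 exchanged, so the Large White values there do not follow the labelled classes. In Pietrain the authors' deposited table called 1.89% of the sequences with an adjusted p. Of 62 such miR-140-3p sequences 14 (22.6%) had an unadjusted p below 0.05, against 7.24% of all 4699 sequences in the authors' deposited table. The lowest adjusted p among them in the authors' deposited table was 0.0749, for uACCACAGgguagaaccacggaa, with a log2 fold change of 0.90. All 16 miR-140-3p sequences with a mean signal of 100 or more had a positive value there, from 0.15 to 0.90, as did 386 of all 742 such sequences in the authors' deposited table. In the authors' deposited table for Large White, 6 of 16 were positive (-0.26 to 0.28), as were 336 of all 793 such sequences. For Hampshire, where the authors' deposited table called 0.0187% of sequences, 0 of 9 were positive (-0.49 to -0.14), against 302 of all 595. Sequences of 1 arm share their precursor and libraries and are not replicates.

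The miRNAs whose level stayed in the most constant ratio to miR-140-3p over all 22 libraries were miR-20a, miR-17-5p, let-7g, miR-16 and miR-103. The measure was the SD of the log2 ratio, which was 0.27 for miR-20a, 0.33 for miR-17-5p, 0.37 for let-7g, 0.38 for miR-16 and 0.43 for miR-103, against a median of 0.66 over 90 candidates. miR-140-5p, from the same hairpin, had 0.63, and 51 candidates had a larger value. miR-20a averaged 475 ± 114 CPM in Pietrain (SD, n = 7), 303 ± 36.1 CPM in Large White (SD, n = 8) and 180 ± 51.1 CPM in Hampshire (SD, n = 7). The libraries, their depth and the breed order are shared by all these points. None of the 5 passed the threshold in a fat comparison with edgeR (adjusted p of 0.894 or more).

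Of the lists of related miRNAs, 0 members passed in either direction in any fat comparison with edgeR. Adipogenesis promoters, 14 of which were tested in Pietrain, had a median log2 difference of -0.02 there against 0.01 over all miRNAs; the most abundant were miR-148a-3p and miR-143-3p, with -0.02 ± 0.17 and -0.03 ± 0.36. The 9 adipogenesis repressors had a median of 0.14 in Pietrain, with let-7a at -0.11 ± 0.14 and miR-27b-3p at 0.01 ± 0.17. Of 12 names of cartilage and mesenchyme miRNAs, to which miR-140-5p belongs, 6 were found and 6 were not. The joint name miR-199ab-3p was the most abundant one found, and the list also holds miR-199a-3p and miR-199b-3p. The median was -0.07 for Pietrain, 0.29 for Large White and -0.37 for Hampshire, against 0.01, 0.05 and 0.02 over all miRNAs. With 5 members tested in Hampshire, the median there is the value of miR-140-5p itself.

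The tissue label rests on no miRNA found in fat alone; the adipogenesis promoters together, which other tissues also express, held from 286071 to 634163 CPM in the 22 libraries. Markers of other cells varied between libraries beside these levels. Summed over the list, the muscle markers ran from 254 to 1944 CPM in Pietrain, 273 to 1067 in Large White and 289 to 2415 in Hampshire. Their medians were 472, 385 and 1182 CPM, and 3 of the 6 names were not found. Liver and gut markers, led by miR-122, ran from 9.95 to 8379 CPM, 343 to 4204 CPM and 404 to 25890 CPM in the same order, with medians of 910, 560.4 and 3341 CPM. Both lists thus had their highest median in Hampshire, the breed with the lowest miR-140-3p, as did the nerve markers (713, 973 and 1410 CPM). The adipogenesis promoters did too (418716, 381237 and 582425 CPM), and so did the cartilage and mesenchyme miRNAs (15399, 22586 and 25179 CPM). The adipogenesis repressors (83517, 81223 and 75433 CPM) and the other marker lists did not. Medians were 779, 500 and 600 CPM for red blood cell markers and 769, 650 and 519 CPM for leukocyte markers. For endothelial markers they were 42949, 42192 and 40858 CPM. In their highest library, red blood cell markers reached 1161, 734 and 1900 CPM and leukocyte markers 1186, 863 and 1712 CPM. Nerve markers reached 1095, 1314 and 2162 CPM, and endothelial markers 45726, 57752 and 85913 CPM. Without the 2 libraries richest in miR-122, miR-140-3p differed by -1.09 ± 0.17 (SE) between Hampshire and Pietrain and by -0.66 ± 0.16 between Hampshire and Large White. The part of the other marker lists in the breed levels was not tested.

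The medians of some marker lists also moved in opposite directions between fat classes in Pietrain and Hampshire, as the arm ratio did. No marker passed the threshold in the edgeR test. The median log2 difference, thick minus thin, was -1.11 in Pietrain and 0.94 in Hampshire for the muscle markers, -0.42 and 0.93 for the leukocyte markers, and -0.14 and 0.89 for the red blood cell markers. For the endothelial markers it was 0.16 and -0.25, for liver and gut -0.79 and -0.50, and for nerve -0.16 and -0.35. Large White medians were -0.11 for muscle, 0.08 for leukocyte and 0.35 for red blood cell markers, 0.05 for endothelial, 1.36 for liver and gut and -0.53 for nerve markers. In Pietrain and Hampshire the medians covered 3 and 5 leukocyte markers and 2 and 3 red blood cell markers. Within those lists miR-150 had -0.42 and 0.93, and miR-486 had -0.51 and 1.22. miR-451, the most abundant red blood cell marker, went the other way at 0.23 and -0.21, and miR-155-5p had 0.63 and 0.13. The part of these markers in the fat differences of either arm was not tested.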

How the data were processed

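Small RNA of pig subcutaneous fat was read in 22 libraries on a HiScan SQ after NEBNext library preparation, per the labels' protocols. The authors deposited, for each breed, a table of unnormalized read counts per sequence with miRNA names. They also deposited a DESeq2 fat comparison for each breed. Per the file headers, it holds for each sequence the mean signal, log2 fold change and its error, Wald score, and raw and adjusted p-value. The trimmer, aligner and miRNA release are not given in the sources used here, and the submitters' processing notes name Sscrofa 10.2, bcl2fastq, FastQC and DESeq2 with no version.

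Counts were summed per name. The 80 unnamed sequences (0.048% of reads) stayed out. CPM use TMM library sizes. Tests were edgeR 4.0.16's quasi-likelihood test (robust, TMM, filterByExpr, Benjamini-Hochberg adjustment, threshold 0.05; limma 3.58.1, R 4.3.3), within each breed and over all breeds. The standard error is the log2 difference divided by the square root of F. Read forms within an arm were compared by exact permutation tests. Both tests were checked on simulated data. Of 32 pairs of libraries within groups, none agreed within sampling noise (lowest chi-square per degree of freedom 127). With no molecular identifiers, copies made by PCR could not be told from separate molecules.

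The pair, the lists and the rules were chosen with earlier results of these data known. Named in full were both arms, the 5 miRNAs of most constant ratio to miR-140-3p (mean of 100 CPM or more, reads in every library), the most abundant 2 of a list or those that passed, and the sequences with the most reads or of each start and end. miR-151 and the short-ended sequences were named after their values were seen. Measures planned against the hairpin were replaced, because no hairpin table was used here: starts were compared among the reads, and a base other than c after gga stood in for bases that the hairpin does not hold. Alternatives were other scalings and filters, DESeq2 1.42.0, limma-voom, 1 fit of 6 groups, the most abundant sequence of each name, sequences present in every library, the Large White exchange and leaving out each library. Leaving out the 2 libraries richest in miR-122 was added after seeing the data.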

Additional observations from a re-analysis of the deposited data

Results flagged for a closer look

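Of 36 group-by-measure sets of 4 or 5 libraries examined for 1 library far from the rest, 4 had one, and chance gives about 1 in 20. Large White thick replicate 1 had 5123 CPM of miR-140-3p, above the other 3 libraries of its group, and it is 1 of the 2 libraries whose labels the deposited comparison puts in question. Large White thin replicate 2 had an upstream start share of 46.3%, below the other 3 of its group. Large White thick replicate 2 had the lowest log2 arm ratio of its group, 3.64. Hampshire thick replicate 3 had 0.230% of miR-140-3p reads with 1 changed base, while the other libraries of its group were at 0. It had the most miR-140-3p reads of its group (5653), and a sequence needed at least 6 reads to be listed. With the others at 0, any value above 0 is flagged, so the share of 1 in 20 does not apply to it.

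The log2 arm ratio, thick minus thin, was -0.59 in Pietrain and 0.65 in Hampshire, with no overlap of the classes in either breed and opposite directions. In Pietrain the classes did overlap when only sequences with reads in every library were counted. The difference between the 2 breeds in this ratio was not tested. The median fat difference of the muscle markers was -1.11 in Pietrain and 0.94 in Hampshire. That of the leukocyte markers was -0.42 over 3 members and 0.93 over 5. The part of these markers in the ratio was not tested. For the level of miR-140-3p alone, the test of a fat difference that varied between breeds gave an edgeR adjusted p of 0.494.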

How the results depend on the processing

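No paired analysis was possible because the labels give no replicate numbers that pair libraries across groups. No alternative took a fat test of either arm or of a read form past the threshold (lowest adjusted p 0.218 over 224 alternatives in the level tests and 0.343 over 296 in the read-form tests). The breed differences of miR-140-3p kept their sign in every setting. Hampshire minus Large White was -0.97 for miR-140-3p and 0.062 for miR-140-5p with library totals only, and with the most abundant sequence of each name it was -1.14 for miR-140-3p, with -1.62 for Hampshire minus Pietrain. The most abundant sequence alone gave -0.0055 for the fat difference of miR-140-5p in Pietrain, and limma-voom 0.027 for its Pietrain minus Large White difference. The Large White exchange changed the sign of the fat differences there of miR-140-3p (-0.11), miR-140-5p (-0.061), the log2 arm ratio (-0.049), the upstream start share (0.84 points; 0.21 over all breeds) and the share with a base other than c after gga (1.64 points). DESeq2 called 1 miRNA in Pietrain, 3 in Hampshire, 1 over all breeds and 2 for the variation between breeds, and edgeR with DESeq2's size factors called 1 over all breeds. Cases that changed were not traced further, and the cause was not tested. No changed sequence had reads in every library, so the share with 1 changed base has no value in that setting.

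Leaving out each library in turn gave ranges that crossed 0 for the following. For miR-140-5p they were -0.066 to 0.084 for the fat difference in Pietrain, -0.098 to 0.033 over all breeds and -0.079 to 0.022 for Pietrain minus Large White. For miR-140-3p over all breeds the range was -0.14 to 0.022, positive without Pietrain thin replicate 1. The log2 arm ratio had ranges of -0.055 to 0.089 (Large White) and -0.027 to 0.098 (all breeds). In percentage points, the upstream start share ranged from -0.92 to 0.66 in Pietrain and from -0.85 to 0.46 in Hampshire, the share of the most abundant sequence from -0.39 to 0.33 in Pietrain, from -1.66 to 0.32 in Hampshire and from -0.38 to 0.28 over all breeds, and the share with a base other than c after gga from -1.15 to 0.22 in Large White. The range of the share with 1 changed base was -0.17 to 0.16 (Pietrain), -0.050 to 0.099 (Large White) and -0.027 to 0.081 (all breeds). Mean length ranged from -0.058 to 0.11 nt in Hampshire and from -0.039 to 0.017 nt over all breeds. Counts of miRNAs called by edgeR ranged from 0 to 2 in Pietrain, 0 to 1 in Large White, 0 to 1 in Hampshire, 0 to 1 over all breeds and 0 to 2 for the variation between breeds. With Hampshire thin reduced to 1 library, that library is assumed to vary like the others. Hampshire had the fewest reads and only 2 thin libraries, so its fat comparison limits what could be detected most.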
